A study of Mus musculus with 28 samples.

Results

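The 4 Hox clusters of the mouse genome were examined for histone marks in lung tumours, as windows of mm9, the build named in the submitters' processing notes. The windows were chr6:52095000-52225000 for HoxA (130 kb), chr11:96045000-96235000 for HoxB (190 kb), chr15:102740000-102875000 for HoxC (135 kb) and chr2:74495000-74610000 for HoxD (115 kb). Every peak of 24 deposited peak lists that overlapped a window was taken, by position alone. This gave 1342 of 950445 peaks, of which 280 lay in HoxA, 436 in HoxB, 306 in HoxC and 320 in HoxD.

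Hox genes encode homeodomain transcription factors that set positional identity along the body axis, and lung keeps expressing some of them in the adult. They are arranged so that low-numbered genes, the anterior end of a cluster, are active earlier and further forward in the embryo than high-numbered genes at the posterior end. Polycomb complexes hold silent Hox genes under trimethylation of histone H3 at lysine 27 (H3K27me3), while trithorax-type methyltransferases of the Mll family oppose them by methylating lysine 4. Active genes carry H3K4me3 at their starts, H3K27ac at promoters and enhancers, and H3K79me2 along their transcribed part.

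The tumours were induced with Ad-CMV-Cre, an adenovirus that carries Cre recombinase under a broadly active promoter, in mice of 2 genotypes. K-RasLSL-G12D mice hold a mutant K-Ras allele that Cre switches on, and K-RasLSL-G12D;Mll4fl/fl mice hold in addition floxed alleles of Mll4, a H3K4 methyltransferase gene that Cre deletes. All tumours therefore shared the K-Ras allele and the Cre treatment. ChIP-seq was run on tumour tissue for 6 marks with 4 libraries each, and 4 input samples were not analysed here. The labels do not tie a library to a genotype, so the 4 libraries of a mark may hold both genotypes, no comparison between genotypes was made, and the spread between libraries includes any difference between them. The labels do not say that replicate numbers are separate animals either, so p-values measure only the spread between these libraries, which may be technical. In bulk tumour tissue a share of cells with a mark and the strength of the mark cannot be told apart.

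The peaks are shown here by position, because the gene table and sequences used were of build GRCm38.p6, and no gene was placed on mm9. The gene table served only for the order of the genes. It put the anterior end at the low coordinate in HoxA and at the high coordinate in HoxB, HoxC and HoxD, and all distances are counted in kb from that anterior end. RefSeq promoter sequences were found for 22 of the 39 Hox genes (24 promoters). In mammals, dense CpG dinucleotides are a common feature of promoters bound by both Polycomb and trithorax-type complexes, and the 250 bases before the start were counted for CpG. The Hox promoters held a median of 12.5 CpG (range 2 to 35) against a median of 6 over 32851 promoters in the table, and 62.5% of them held at least 10 CpG against 37.8% of all promoters. HoxA and HoxD gave 10 promoters each, HoxB gave 3 and HoxC gave 1, which held 8 CpG. These values therefore describe mostly HoxA and HoxD. Promoters near the anterior end (Hoxa2, Hoxd1) and at the posterior end (Hoxa13, Hoxd13) of the clusters with the most sequences are printed to show what both ends look like, 5′ to 3′ on the gene's strand, with CpG in capitals. They are Hoxa2 (chr6:52164832-52165081, minus strand), Hoxa13 (chr6:52260881-52261130, minus strand), Hoxd1 (chr2:74762730-74762979, plus strand) and Hoxd13 (chr2:74667975-74668224, plus strand), all in GRCm38.p6.
Hoxa2: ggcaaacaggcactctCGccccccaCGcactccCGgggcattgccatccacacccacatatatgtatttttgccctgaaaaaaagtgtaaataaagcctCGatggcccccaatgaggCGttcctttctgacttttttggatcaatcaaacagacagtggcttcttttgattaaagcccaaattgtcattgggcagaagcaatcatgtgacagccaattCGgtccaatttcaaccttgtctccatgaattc
Hoxa13: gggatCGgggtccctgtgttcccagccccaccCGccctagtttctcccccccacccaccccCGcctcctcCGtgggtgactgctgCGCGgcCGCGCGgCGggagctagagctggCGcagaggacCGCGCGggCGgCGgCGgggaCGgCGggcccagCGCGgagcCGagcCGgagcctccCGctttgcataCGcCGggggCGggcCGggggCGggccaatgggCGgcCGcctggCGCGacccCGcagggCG
Hoxd1: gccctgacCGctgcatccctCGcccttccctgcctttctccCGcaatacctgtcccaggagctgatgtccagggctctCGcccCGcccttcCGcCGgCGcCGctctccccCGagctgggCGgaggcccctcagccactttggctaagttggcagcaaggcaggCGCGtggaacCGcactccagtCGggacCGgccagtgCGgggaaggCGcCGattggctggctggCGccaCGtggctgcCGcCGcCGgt
Hoxd13: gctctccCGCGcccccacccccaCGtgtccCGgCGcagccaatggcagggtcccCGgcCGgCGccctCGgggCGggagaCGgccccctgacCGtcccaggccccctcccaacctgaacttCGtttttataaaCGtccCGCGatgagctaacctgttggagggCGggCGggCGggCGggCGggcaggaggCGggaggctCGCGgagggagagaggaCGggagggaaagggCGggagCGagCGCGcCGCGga
Hoxa13 held 35 CpG and Hoxd13 held 31, while Hoxd1 held 24 and Hoxa2 held 6. Other genes between these ends had counts from 3 to 28 in HoxA and from 2 to 20 in HoxD, with no steady order along the cluster.

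H3K27me3 made up 1058 of the 1342 peaks (78.8%), against 15.7% of all peaks in the 24 lists. H3K4me3 followed with 193 peaks (14.4%, against 7.55% of all peaks). Of the rest, 42 peaks were H3K4me1 (3.13%, against 33.7% of all peaks), 20 were H3K9me3 (1.49%, against 3.40%), 16 were H3K27ac (1.19%, against 23.7%) and 13 were H3K79me2 (0.969%, against 15.9%). Sequencing depth is unknown, since peak lists hold no read counts, and the lists differed in length and peak width. The H3K27me3 lists held 20047 to 47790 peaks and covered 0.410% to 3.88% of the genome, and the H3K27ac lists covered 0.757%, 0.838%, 4.38% and 4.29% in replicates 1 to 4. Tissue markers could not be checked without an mm9 annotation.

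Relative to its cover of the whole genome, H3K27me3 covered the clusters 107, 67.7, 6.99 and 70.9 times as densely in replicates 1 to 4. H3K4me3 was also denser in the clusters than in the genome in 4 of 4 libraries, with ratios from 3.78 to 37.6 and a median of 5.73. H3K27ac (ratios 0 to 0.466) and H3K79me2 (ratios 0 to 0.556) were sparser in the clusters than in the genome in 4 of 4 libraries each. H3K4me1, a mark of enhancers, was at 0.254 to 1.07 times its genome cover. H3K9me3 was denser in the clusters than in the genome in 4 of 4 lists, with ratios from 2.23 to 5.72. Its share of the cluster peaks was nevertheless below its share of all peaks. These ratios are over the 4 clusters together, and single clusters could differ. In HoxA, H3K79me2 replicate 1 (ratio 1.47) and H3K27ac replicate 3 (1.31) were denser than in the genome, and in HoxB H3K4me3 replicate 4 (0.748) was sparser. H3K4me1 was denser in HoxC replicates 1, 2 and 4 (1.39, 1.33 and 1.09) and in HoxD replicates 1 and 2 (1.84 and 2.46). H3K9me3 was sparser in HoxB replicate 4 (0.919) and had no peak in some lists of the other clusters.

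The same was seen in bins of 1 kb, in which a mark was called present where at least 3 of its 4 lists had a peak. H3K27me3 was present in 419 of the 570 cluster bins (73.5%), against 1.37% of 2641329 bins over the genome. H3K4me3 was present in 40 cluster bins (7.02%, against 1.41% of the genome). H3K4me3 and H3K27me3 were both present in 17 cluster bins (2.98%, against 0.0726% of the genome). H3K9me3, the mark of constitutive heterochromatin, was present in 4 cluster bins (0.702%, against 0.179%), and H3K4me1 also in 4 (0.702%, against 1.93%). No cluster bin held H3K27ac or H3K79me2 in at least 3 lists, while 2.24% and 5.59% of the genome's bins did. Every active bin of the clusters was therefore called on H3K4me3.

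**Figure D1:**
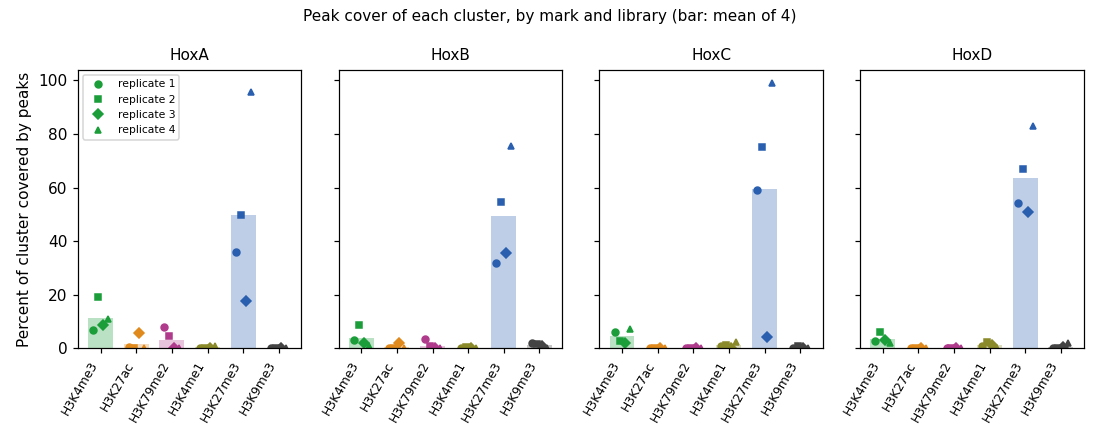
Percent of each cluster covered by peaks, by mark (x axis) and library (points; symbols give the replicate number), with bars at the mean of 4 libraries. H3K27me3 spanned 4.27% to 99.1% of HoxC, its widest spread, and H3K4me3 reached its highest value, 19.2%, in HoxA.

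The clusters differed in how much H3K27me3 they held. H3K27me3 covered 36.1%, 49.8%, 17.6% and 95.8% of HoxA in replicates 1 to 4. It covered 31.8%, 54.7%, 35.5% and 75.4% of HoxB. In HoxC it covered 58.9%, 75.0%, 4.27% and 99.1%, and in HoxD 54.1%, 67.0%, 50.8% and 82.8%. Replicate 4 was highest in all 4 clusters, and HoxC and HoxD were more covered than HoxA and HoxB in replicates 1 and 2. By bins, H3K27me3 was present in 91.1% of HoxC and 91.3% of HoxD but in 54.6% of HoxA and 63.2% of HoxB.

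H3K4me3 covered 6.78%, 19.2%, 8.92% and 10.9% of HoxA. It covered 3.09%, 8.90%, 2.15% and 0.923% of HoxB. In HoxC the values were 5.97%, 2.97%, 2.03% and 7.31%, and in HoxD 2.64%, 6.25%, 3.14% and 2.10%. HoxA had the highest value of the 4 clusters in each replicate number. H3K27ac was found in HoxA (0.718%, 0.120%, 5.74% and 0%) and HoxB (0.268%, 0%, 2.20% and 0%), and H3K79me2 likewise in HoxA (7.86%, 4.64%, 0% and 0%) and HoxB (3.53%, 0.808%, 0% and 0%). HoxC and HoxD had no H3K27ac peak and no H3K79me2 peak in any of the 8 lists of these marks. The plot of cover by mark shows this order, with H3K27me3 far above every other mark in most libraries.

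One H3K27me3 list stood apart from the others over the clusters. Replicate 3 had no peak over 107 kb of HoxA (from 3.59 to 110 kb), 112 kb of HoxB (from 12.7 to 125 kb), 129 kb of HoxC (from 0 to 129 kb) and 55.6 kb of HoxD (from 14.0 to 69.6 kb). The longest gap in the other 3 lists was 17.9 kb in HoxA, 10.2 kb in HoxB, 2.66 kb in HoxC and 3.49 kb in HoxD. In replicates 1, 2 and 4 each cluster was more covered than the 100 kb on either side of it, while in replicate 3 this held for HoxD only.

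In numbers, H3K27me3 covered 13.1%, 21.1%, 59.8% and 36.3% of the HoxA flanks in replicates 1 to 4. HoxB flanks were covered at 16.1%, 31.2%, 76.9% and 39.6%. HoxC flanks were at 20.2%, 37.8%, 69.0% and 64.3%, and HoxD flanks at 3.74%, 6.41%, 21.6% and 7.17%. Replicate 3 was thus the highest of the 4 lists in the flanks of every cluster and the lowest inside HoxA, HoxC and HoxD. It was also the broadest list over the genome, covering 3.88% of it against 0.410%, 0.898% and 1.23% in replicates 1, 2 and 4. Its high cover was therefore not particular to the flanks.

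Over the genome, 117 tiles of 20 kb were covered over at least 50% of their length in replicates 1, 2 and 4, and replicate 3 covered a median of 99.8% of a tile among them. Replicate 3 had no peak at all in 11 of the 117. Of these 11, 9 touched a Hox cluster, which is 9 of the 15 such tiles in the clusters (60%) against 2 of 102 elsewhere (1.96%). When each of the other lists was left out in the same way, no tile that the remaining 3 covered lacked a peak of that list. Those sets needed cover by replicate 3, so they held only 6, 5 and 5 tiles touching a cluster for replicates 1, 2 and 4, against 15. The cause was not tested, and tests are given with and without this list.

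**Figure D2:**
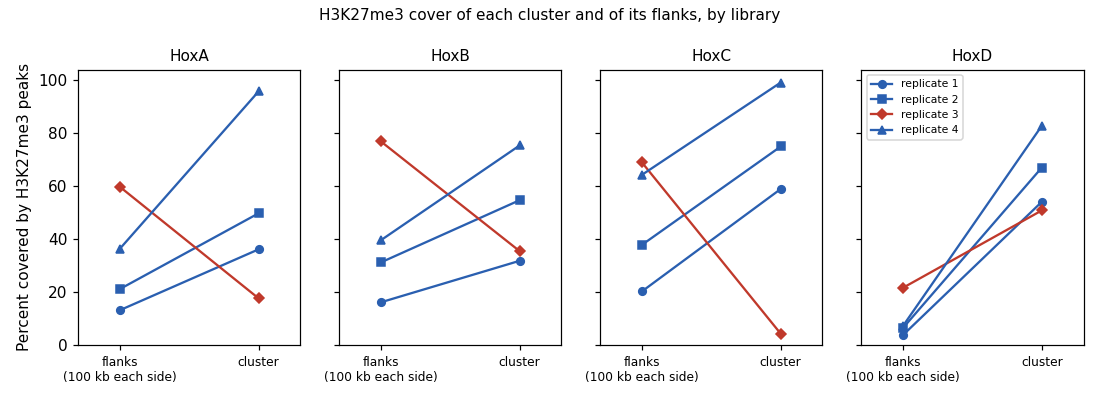
Percent covered by H3K27me3 peaks in the 100 kb on either side of a cluster (left points) and in the cluster (right points), with a line for each library. Replicate 3 (red) is lower in the cluster than in the flanks in HoxA, HoxB and HoxC, where the other 3 libraries are higher in the cluster.

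HoxA held the most active bins of the 4 clusters. Of its 130 bins, 64 held only H3K27me3, 16 only H3K4me3, 7 both and 43 neither. Short stretches of H3K27me3 alone, of 1 to 2 kb, lay between the active stretches anterior to 77 kb, and the longest ran from 78 to 109 kb (chr6:52173001-52204000). Over this stretch H3K27me3 covered 81.1%, 83.9%, 0% and 98.0% in replicates 1 to 4, and H3K4me3 covered 1.69%, 0%, 0% and 0%. Over the 78 kb anterior to it H3K27me3 covered 15.0%, 35.9%, 4.00% and 95.9%, and H3K4me3 covered 9.71%, 30.1%, 13.8% and 16.1%. H3K4me3 was higher anterior to 78 kb than in the stretch in 4 of 4 libraries, while H3K27me3 was lower there in replicates 1, 2 and 4, with a small gap in replicate 4. The stretch was chosen from the same peaks, so these values are a description.

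HoxA held 15 H3K4me3 sites (peaks of any library joined where at most 1 kb apart), of which 9 were present in at least 3 libraries and 7 in all 4. Of these 9 sites, 8 lay between 12.5 and 77.1 kb. The site from 55.4 to 59.9 kb (chr6:52150438-52154865) had the highest H3K4me3 scores of these sites, 3100, 937, 932 and 716 in replicates 1 to 4. It carried H3K27ac in 2 libraries and H3K79me2 in 2, and H3K27me3 covered 0%, 23.4%, 0% and 99.0% of it. The longest active stretch, 4 bins from 56 to 60 kb, lay at this site.

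The ninth site lay alone at the posterior end, from 114.7 to 116.6 kb (chr6:52209743-52211634). Its H3K4me3 scores were 1502, 121, 59.2 and 112. H3K27me3 was present there in 4 of 4 libraries, over 60.9%, 61.6%, 100% and 73.8% of it, while at the 8 anterior sites it was present in 1 to 3. No H3K27ac or H3K79me2 peak lay on it, as at 3 of the 8 anterior sites. Between 77.1 and 114.7 kb H3K4me3 had no peak in replicates 2, 3 and 4. This gap of 37.7 to 37.8 kb was the longest H3K4me3 gap in HoxA in those 3 lists, and replicate 1 had peaks within it that ended at 80.8 kb and began again at 100.5 kb. The longest stretch of HoxA with H3K4me3 and H3K27me3 in the same bins, 3 kb from 114 to 117 kb, lay at this site, and the others were single bins.

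HoxB was mostly H3K27me3 with few active bins. Of its 190 bins, 119 held only H3K27me3, 5 only H3K4me3, 1 both and 65 neither. The longest stretches of H3K27me3 alone were 21 kb each, from 108 to 129 kb (chr11:96106001-96127000) and from 169 kb to the posterior end (chr11:96045001-96066000). The first was covered at 47.8%, 75.5%, 18.2% and 83.2% and the second at 61.8%, 78.8%, 100% and 93.1%. At the anterior end, the first 13 kb also held H3K27me3 alone, at 41.6%, 57.4%, 97.6% and 75.4%.

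The 1 HoxB site with H3K4me3 in all 4 libraries ran from 53.1 to 56.7 kb (chr11:96178346-96181904), with scores of 58.7, 512, 707 and 265. It carried H3K27ac in 2 libraries and H3K79me2 in 2. H3K27me3 covered 16.3%, 20.1%, 0% and 91.7% of it. All 5 HoxB sites with H3K4me3 in at least 3 libraries lay between 53.1 and 92.0 kb. The longest active stretches were 2 kb each, from 54 to 56 kb and from 69 to 71 kb, and the single bin with both H3K4me3 and H3K27me3 lay from 69 to 70 kb.

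**Figure D3:**
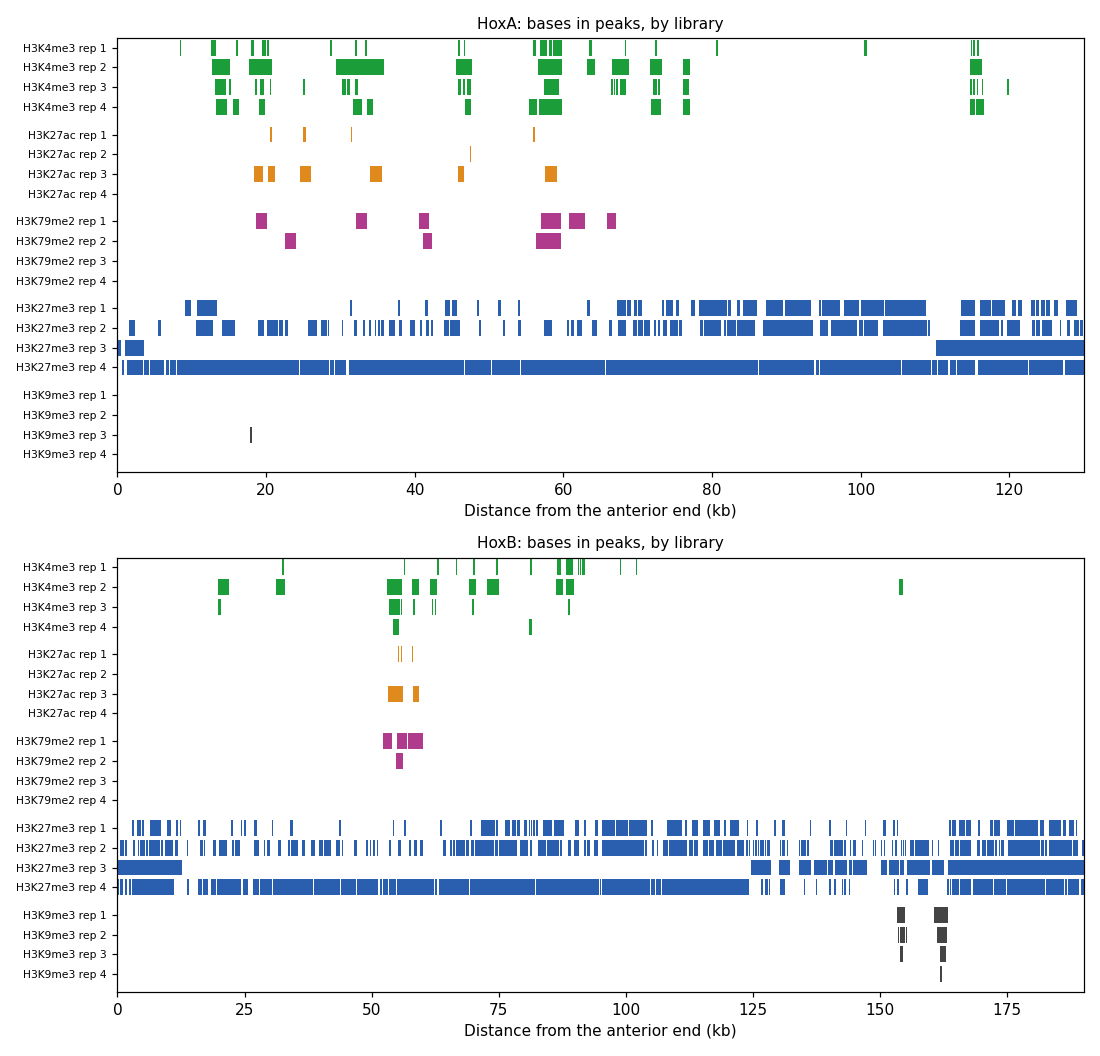
Bases in peaks along HoxA and HoxB, in kb from the anterior end, with 1 line of blocks for each library of 5 marks (H3K4me1 is not drawn). In HoxA H3K4me3, H3K27ac and H3K79me2 lie mostly anterior to 78 kb and H3K27me3 replicates 1 and 2 are densest beyond it. In HoxB the H3K27ac and H3K79me2 peaks lie between 52.3 and 60.04 kb, H3K4me3 is spread more widely, and H3K27me3 replicate 3 is empty from 12.7 to 125 kb.

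HoxB was also the cluster with H3K9me3. Both H3K9me3 stretches were near the posterior end, from 153 to 155 kb (chr11:96080001-96082000) and from 161 to 163 kb (chr11:96072001-96074000). H3K9me3 covered 75.7%, 56.5%, 31.3% and 0% of the first and 100%, 92.5%, 53.7% and 19.5% of the second. H3K27me3 covered 13.0%, 41.5%, 70.1% and 13.2% of the first and 0%, 9.50%, 75.1% and 0% of the second. H3K9me3 covered 2.18%, 1.74%, 0.894% and 0.205% of the whole of HoxB. In the other clusters it was seen in 1 to 2 of 4 lists, with at most 2.13% covered (HoxD, replicate 4).

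H3K27me3 was present in 123 of the 135 bins of HoxC. Of the 135 bins, 118 held only H3K27me3, 5 H3K27me3 with H3K4me3, 1 only H3K4me3 and 11 neither. The longest stretch of H3K27me3 alone, from 10 to 36 kb (chr15:102839001-102865000), was covered at 62.5%, 68.7%, 0% and 98.9%. Replicate 3 placed its 2 HoxC peaks at the posterior end, where it covered 96.0% of the last 6 kb.

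Of 16 H3K4me3 sites in HoxC, 1 was present in 4 of 4 libraries, from 44.5 to 46.8 kb (chr15:102828245-102830486). Its H3K4me3 scores were 958, 139, 472 and 145, and H3K27me3 covered 69.8%, 92.4%, 0% and 100% of it. H3K4me1 was present there in 4 of 4 libraries, which held for no other site with H3K4me3 in at least 3 libraries. The longest stretches with H3K4me3 and H3K27me3 in the same bins were 2 kb each, from 44 to 46 kb at this site and from 122 to 124 kb (chr15:102751001-102753000), where H3K27me3 covered 90.4%, 85.5%, 0% and 100%.

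HoxD resembled HoxC in its bins, with 101 of 115 holding only H3K27me3, 4 both marks, 1 only H3K4me3 and 9 neither. Its longest stretch of H3K27me3 alone, 40 kb, was the longest of any cluster and ran from 75 kb to the posterior end (chr2:74495001-74535000). All 4 libraries covered it, at 63.3%, 73.4%, 100% and 88.3%. Anterior to it the cover was lower in all 4 libraries, at 49.2%, 63.6%, 24.6% and 79.9%. The stretch was chosen as the longest in these same lists, so the difference is a description. H3K27me3 replicate 3 covered this stretch with the other lists, and its gap lay further anterior, from 14.0 to 69.6 kb.

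H3K4me3 in HoxD was present in 3 or more libraries at 3 sites, which lay next to each other between 59.5 and 75.4 kb. The 1 site present in all 4, from 65.2 to 67.6 kb (chr2:74542382-74544803), had scores of 1428, 142, 171 and 198. H3K27me3 covered 59.2%, 63.4%, 0% and 93.2% of it. The longest stretch with both marks, from 65 to 67 kb, lay at this site and ended 8 kb before the 40-kb stretch began.

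**Figure D4:**
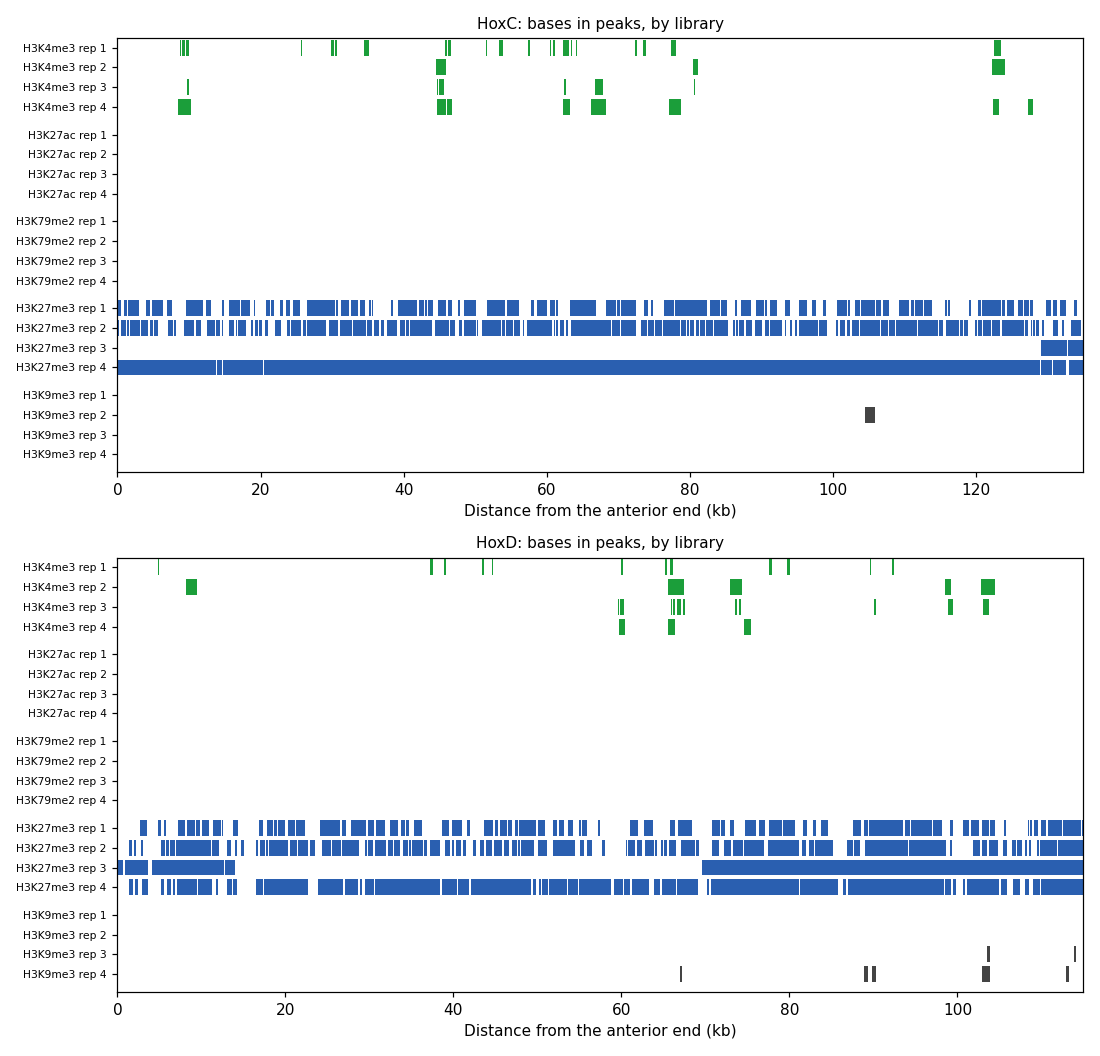
Bases in peaks along HoxC and HoxD, in kb from the anterior end, drawn as for HoxA and HoxB. Both clusters lack H3K27ac and H3K79me2 blocks in all lists, H3K27me3 replicates 1, 2 and 4 run from end to end, and replicate 3 is limited to the posterior 6 kb of HoxC and to both ends of HoxD.

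The overlap of H3K4me3 with H3K27me3 was measured in each cluster. In HoxA, 22.8%, 36.8%, 7.50% and 97.5% of H3K4me3 bases lay under H3K27me3 peaks of the same replicate number, which in replicates 1 to 3 was below the cover of the cluster itself. HoxB was mixed, at 37.0%, 47.6%, 0% and 89.7%, above the cluster's cover in replicates 1 and 4 and below it in replicates 2 and 3. HoxC, at 63.1%, 83.6%, 0% and 100%, was above it in replicates 1, 2 and 4. HoxD, at 60.3%, 74.0%, 50.9% and 96.8%, was above it in 4 of 4, though by under 0.1 percentage points in replicate 3. By bins, 7 of 23 H3K4me3 bins of HoxA and 1 of 6 of HoxB also held H3K27me3, against 5 of 6 in HoxC and 4 of 5 in HoxD. Of all bins, 54.6%, 63.2%, 91.1% and 91.3% held H3K27me3 in HoxA to HoxD, and in no cluster were H3K4me3 bins above that share. Over the genome 1918 of 37251 H3K4me3 bins also held H3K27me3. The counts changed with the rule for a bin. With 2 of 4 libraries 27 of 33 H3K4me3 bins of HoxA, 17 of 19 of HoxB, 15 of 15 of HoxC and 9 of 10 of HoxD also held H3K27me3. Under that rule H3K27me3 was present in 113 of 130, 177 of 190, 135 of 135 and 112 of 115 bins. The HoxC count was thus fixed, and the others had little room to be low. With 4 of 4 libraries 2 of 11 H3K4me3 bins in HoxA, 0 of 1 in HoxC and 0 of 2 in HoxD held both marks, and HoxB had no H3K4me3 bin. H3K27me3 was then present in 16 bins of HoxA, 6 of HoxC and 51 of HoxD. The difference between clusters was not tested.

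The order of the marks along each cluster was measured as the mean position of covered bases, in percent of the way from the anterior end. For each replicate number the peaks of H3K4me3, H3K27ac and H3K79me2 were joined into 1 active value. In HoxA, H3K27me3 lay at 67.7%, 58.0%, 80.0% and 50.3% and the active marks at 38.0%, 35.7%, 34.8% and 41.2% in replicates 1 to 4. The groups did not overlap, and the means were 64.0% ± 12.8 and 37.4% ± 2.84 (SD, n = 4 each; exact two-sided permutation test, p = 0.0286, adjusted over 8 tests p = 0.0571). In HoxB, H3K27me3 lay at 57.1%, 53.5%, 68.9% and 46.5% and the active marks at 35.5%, 33.5%, 29.5% and 33.4%. These groups did not overlap either, with means of 56.5% ± 9.37 and 33.0% ± 2.51 (SD, n = 4 each; exact permutation p = 0.0286, adjusted p = 0.0571). In both clusters the active marks were the more anterior in 16 of 16 pairs of values. The value of 0.0286 is the smallest that the 70 labelings of 4 against 4 allow, and no adjusted p passed 0.05.

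In HoxC, H3K27me3 lay at 49.0%, 50.7%, 97.8% and 49.8% and the active marks at 41.1%, 64.7%, 41.7% and 46.9%. The groups overlapped, with means of 61.8% ± 24.0 and 48.6% ± 11.0 (SD, n = 4 each; exact permutation p = 0.429, adjusted p = 0.429). In HoxD, H3K27me3 lay at 52.8%, 51.5%, 63.7% and 52.4% and the active marks at 52.9%, 60.2%, 69.1% and 58.1%. The means were 55.1% ± 5.79 and 60.1% ± 6.77 (SD, n = 4 each; exact permutation p = 0.286, adjusted p = 0.327), and the active marks were the more posterior in 13 of 16 pairs. In HoxC and HoxD the active value is H3K4me3 alone, since no list had H3K27ac or H3K79me2 there. Of the HoxD H3K4me3 bases, 60.3%, 74.0%, 50.9% and 96.8% lay under H3K27me3 in replicates 1 to 4. A position near 50% is what even cover from end to end gives, and 3 of 4 H3K27me3 lists in HoxC and HoxD lay within 3 points of it. In HoxA replicate 4 did so too, and in HoxB replicates 2 and 4 lay within 4 points.

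Leaving out H3K27me3 replicate 3, an alternative chosen after seeing the data, kept the order in HoxA (58.7% ± 8.74, n = 3) and HoxB (52.4% ± 5.39, n = 3), and both exact permutation tests gave p = 0.0286 (adjusted p = 0.0381). The differences became smaller, from 26.6 to 21.2 percentage points in HoxA and from 23.6 to 19.4 in HoxB. The adjusted p was lower only because more of the 8 tests reached the smallest p allowed, among them the HoxA and HoxC share tests given below. Without that list HoxC came to 49.8% ± 0.838 (n = 3; exact permutation p = 0.886, adjusted p = 0.886) and HoxD to 52.2% ± 0.676 (n = 3; exact permutation p = 0.0571, adjusted p = 0.0653). The HoxC difference was 13.2 percentage points with that list, 1.24 without it, and -1.06 when the active lists numbered 3 were left out too. It also moved with other choices, to 22.3 without the lists numbered 2 and to 23.6 with scores of at least 100 (exact permutation p = 0.0286, adjusted p = 0.0381).

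The share of each cluster under H3K27me3 was compared with the share under any active mark in the same way. The share was 49.8% ± 33.3 against 14.3% ± 4.82 in HoxA (exact permutation p = 0.0571, adjusted p = 0.0914, SD, n = 4 each), with 15 of 16 pairs higher for H3K27me3. Without the lists numbered 4 the HoxA difference was 19.0 percentage points, against 35.5 with them. It was 49.3% ± 20.1 against 4.87% ± 3.59 in HoxB and 63.7% ± 14.5 against 3.53% ± 1.86 in HoxD (exact permutation p = 0.0286, adjusted p = 0.0571 for each, SD, n = 4 each), with 16 of 16 pairs higher. In HoxC it was 59.3% ± 40.3 against 4.57% ± 2.48 (exact permutation p = 0.0857, adjusted p = 0.114, SD, n = 4 each), with 14 of 16 pairs higher. Without H3K27me3 replicate 3 all 4 share tests gave an exact permutation p = 0.0286 (adjusted p = 0.0381), the smallest that 3 against 4 allows. That list was singled out for its gaps inside the clusters, which lower the share itself, so these 4 results add no support.

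**Figure D5:**
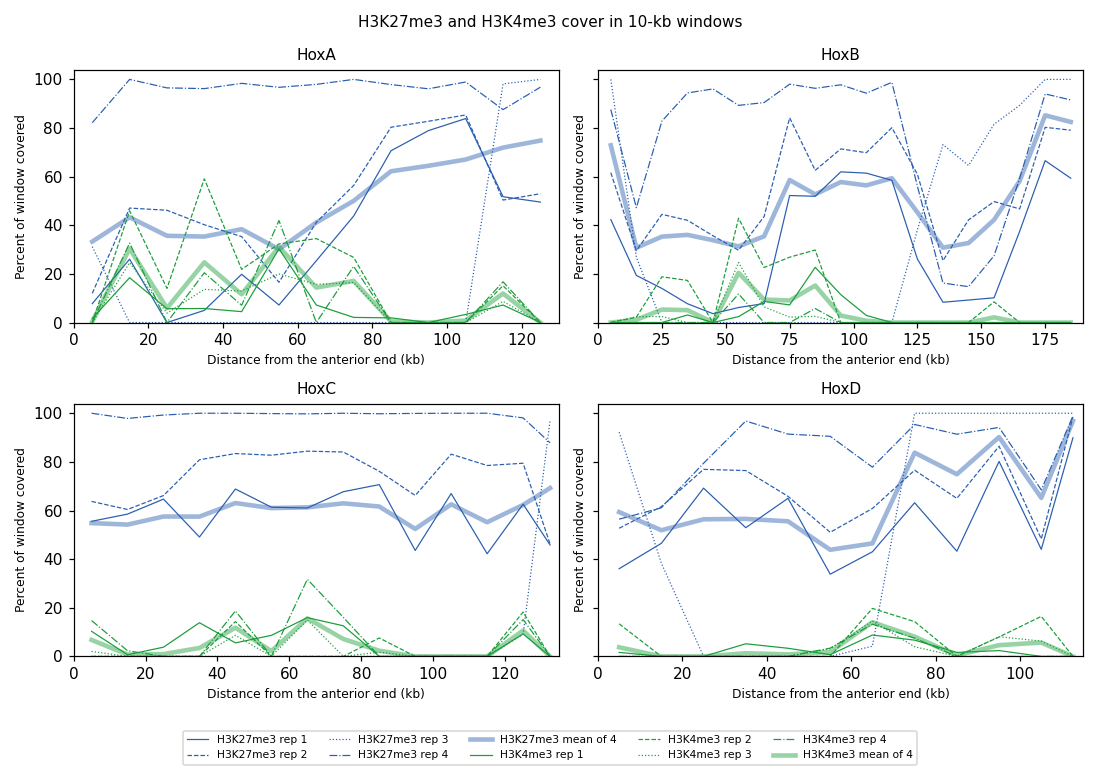
Percent of each 10-kb window covered by H3K27me3 (blue) and H3K4me3 (green) along the clusters, with thin lines for libraries and thick lines for the mean of 4. In HoxA the mean H3K27me3 line is higher beyond 78 kb than before it, while in HoxC it has no such step.

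A boundary between active and repressed chromatin was sought in each cluster as the bin edge that put most single-state bins on their own side, active on one side and H3K27me3 on the other. In HoxA it fell at 35.5 kb (chr6, position 52130501), with edges from 34 to 37 kb tied and the active marks anterior. It placed 67 of 80 single-state bins correctly, against 64 with no boundary at all, so it rested on 3 bins. Fitted by replicate number, the HoxA boundary was at 68, 0.5 and 93.5 kb in replicates 1 to 3, and replicate 4 had none because H3K27me3 covered its active bins. The spread of 0.5 to 93.5 kb is most of the cluster's length, so these lists place no boundary that their replicates share.

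Anterior to 35.5 kb H3K27me3 covered 10.3%, 34.4%, 8.79% and 93.0% of HoxA in replicates 1 to 4, and posterior to it 45.9%, 55.5%, 21.0% and 96.8%. H3K4me3 covered 8.90%, 32.4%, 11.9% and 15.0% anterior and 5.99%, 14.3%, 7.81% and 9.41% posterior. The edge was fitted to the bins of these same libraries, so the direction of both differences is set by the fit and is a description. In HoxB, HoxC and HoxD the edge fell at 0, 0 and 0.5 kb, which is the anterior end, and the bins placed correctly numbered the same as with no boundary (119 of 124, 118 of 119 and 101 of 102). The pooled libraries thus gave no boundary inside these 3 clusters. By replicate number, the edge was at 0, 0 and 1 kb in replicate 1 of HoxB, HoxC and HoxD, at 0 kb in replicate 2 of HoxB, and at 106.5, 105 and 0 kb in replicate 3 of HoxB, HoxC and HoxD, and the other fits gave none. The replicate 3 edges placed 76 of 89 bins in HoxB (75 with no boundary) and 13 of 13 in HoxC (7 with no boundary), where H3K27me3 replicate 3 has the gaps described. Asking for H3K27me3 and H3K4me3 each in 4 of 4 libraries moved the HoxA edge to 93 kb and the HoxC edge to 87.5 kb, and asking for 3 of 3 after leaving out replicate number 1, 2 or 4 gave 93 to 95 kb and 87.5 to 96 kb. Each of these fits needs a peak of H3K27me3 replicate 3, and leaving out replicate number 3 kept the HoxA edge at 35.5 kb. With no library left out, the HoxA edge was also at 64.6 kb with scores of at least 100, at 63.5 kb where 50% of a bin had to be covered, at 48.8 kb with bins of 0.5 kb and at 0 kb with 2 of 4 libraries.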

How the data were processed

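Peak lists of 24 ChIP-seq libraries (6 marks, 4 each) were used as deposited. Per the submitters' processing notes, CASAVA 1.7, Bowtie, MACS, deepTools and the mm9 build were used; settings are not given in the sources used here, and the labels do not state whether inputs served as controls. Each deposited list gives peak positions and a score per peak, the authors' own value, whose lowest value was 50. Scores were used only to describe or filter peaks. Lists were called per library, and depth is unknown.

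Libraries were grouped by mark, with replicate numbers from the titles. The windows, marks and tests were chosen with earlier results of these data known. Cover, 1-kb bins (present in at least 3 of 4 lists), stretches and boundaries were computed with Python 3.11.15, numpy 2.4.6 and pandas 2.3.3. Stretches were named by length: in each cluster the longest with H3K27me3 alone, the longest active, the 2 longest with H3K4me3 and H3K27me3, those beside the boundary and every H3K9me3 stretch. Exact permutation tests ran over every labeling (70 for 4 against 4), with Benjamini-Hochberg adjustment across 8 tests. The functions were tested on simulated data. Same-numbered lists of H3K27me3 and active marks deviated together with correlations of -0.08 to 0.09, so the numbers were not taken as pairs in the tests. Active marks were joined, overlaps measured and boundaries fitted by number, which sets together lists that share only a number. Promoter sequences are from RefSeq (GRCm38.p6); overlapping opposite-strand entries were reverse complements in 1838 of 1838 cases. Alternatives were score and peak-number limits, single active marks, wider windows, other bin rules and left-out libraries.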

Additional observations from a re-analysis of the deposited data

Results flagged for a closer look

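In 36 groups of 4 libraries (a mark in a cluster, by percent covered or by number of peaks), 3 had a library far from the other 3 by Dixon's ratio at its 95% limit, and chance alone gives about 1 in 20. Groups with no peak, or with peaks in only 1 library (H3K9me3 in HoxA and HoxC), were left out. H3K27ac replicate 3 covered 5.74% of HoxA, where the other libraries covered 0%, 0.120% and 0.718%. The same library covered 2.20% of HoxB, where the others covered 0%, 0% and 0.268%. H3K4me1 replicate 4 covered 0.934% of HoxA, against 0.278%, 0.332% and 0.362%. The flags did not allow for how much of the genome a list covered. As ratios to genome cover, H3K27ac in HoxA was at 0.949, 0.143, 1.31 and 0 in replicates 1 to 4. In HoxB it was at 0.354, 0, 0.502 and 0. H3K4me1 replicate 4 in HoxA was at 0.444, below replicate 1 at 0.615. Dixon's ratio was not computed on these values.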

How the results depend on the processing

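No test passed an adjusted p of 0.05 in the reported analysis. Of 44 tests recomputed under other settings with every replicate number kept and no block, 24 passed it, 19 kept their direction without passing and 1 reversed. In HoxC and HoxD, where no list has H3K27ac or H3K79me2, 4 of the 24 only set H3K27me3 against 0, and 4 of the 19 (H3K4me3 as the only active mark) repeat the reported values, so these 8 test nothing further. Another 40 tests left out a replicate number or used it as a block and could not pass; 39 of them kept their direction and 1 reversed. Boundaries were recomputed in 39 cases with no test. A p of 0.0286 is the smallest these tests allow, and its adjusted value falls when more of the 8 tests reach it, so such a pass can come with no larger difference. With scores of at least 100, differences between H3K27me3 and active marks (percentage points) came to 27.5, 26.3 and 23.6 for position in HoxA, HoxB and HoxC and to 36.0, 39.8 and 54.7 for share in HoxA, HoxB and HoxD, and the boundary was at 64.6 kb in HoxA and 2.5 kb in HoxD. With the 5224 best-scored peaks of each list, share differences were 39.3, 29.2 and 48.2 in HoxA, HoxB and HoxD, and no position could be given. With H3K27ac as the only active mark, the HoxA position difference was 34.7, and share differences were 48.2, 48.7, 59.3 and 63.7 in HoxA to HoxD. With H3K79me2 alone, share differences were 46.7, 48.3, 59.3 and 63.7. For both marks the HoxC and HoxD values are the H3K27me3 means themselves. With 20 kb added on each side, position differences were 23.4, 22.0 and -0.681 in HoxA, HoxB and HoxC, share differences were 36.2, 46.3, 53.9 and 52.9 in HoxA to HoxD, and the boundary was at -15.5, -20 and -19.5 kb in HoxB, HoxC and HoxD, near or at the new anterior end. The reversal in HoxC had an exact permutation p of 0.943.

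Requiring 4 of 4 libraries of both marks put the boundary at 93 kb in HoxA and 87.5 kb in HoxC. The HoxA boundary was at 63.5 kb with 50% of a bin covered, 48.8 kb with bins of 0.5 kb and 0 kb with 2 of 4 libraries. Leaving out each replicate number in turn moved it between 35.5 and 95 kb in HoxA and, for numbers 1, 2 and 4, between 87.5 and 96 kb in HoxC, where leaving out number 3 gave no boundary. It moved the HoxC position difference between -1.06 and 22.3. The share difference moved between 19.0 and 45.5 in HoxA. These tests of 3 against 3 cannot go below p = 0.1 (exact permutation test). Without H3K27me3 replicate 3, chosen after seeing the data, position differences were 21.2 in HoxA and 19.4 in HoxB, and share differences were 46.2, 49.1, 73.1 and 64.5 in HoxA to HoxD. Bins with H3K27me3, H3K4me3 and both numbered 419, 40 and 17. They numbered 327, 21 and 7 with scores of at least 100, 248, 0 and 0 with equal lists, 266, 13 and 2 where 50% of the bin had to be covered, 537, 77 and 68 with 2 of 4 libraries, and 113, 14 and 2 with 4 of 4. Counting bins under these settings was added after seeing the data. The causes of these changes were not tested.

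With the replicate number as a replicate block, an exact sign-flip permutation test gave p = 0.125, the smallest it allows, for 7 of 8 results and p = 0.625 for the HoxC position. No boundary could be given in 21 combinations of cluster and setting and no position in 8, most of them with a single active mark or equal lists, where active bins or peaks were lacking. Peak lists hold no counts, so a stretch without a peak may be unmarked or under the caller's limit, and which of these holds cannot be told apart here.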
